A study of Mus musculus with 72 samples.

Results

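The genes described here are 9 transcription factor genes of mesenchymal cells, Twist1, Twist2, Prrx1, Runx1, Runx2, Snai2, Tead1, Osr1 and Tbx15, out of 22208 protein-coding genes of GENCODE vM1 on chromosomes 1 to 19 and X. They were chosen by name, and each was represented by the ChIP-seq peaks that lay within 50 kb of its gene body in the mm9 genome. ChIP-seq sequences the DNA that an antibody pulls down, and a peak is a stretch where such DNA exceeds the background. The chromatin came from C57BL/6 mouse embryonic fibroblasts (MEFs), embryonic stem cells (ESCs) and resting splenic B cells (rBs) that were either Hmgn1+/+n2+/+ (WT) or Hmgn1-/- n2-/- (DKO), so that the DKO cells lacked both HMGN1 and HMGN2, proteins that bind nucleosomes. No treatment was given, and the labels give neither the age of the embryos and mice nor the number of clones, embryos or mice behind a replicate. Each of 16 antibodies, 6 in MEFs and 5 each in ESCs and rBs, had 2 libraries per genotype, 64 lists in all, and the question was whether the loss of both proteins changed the peaks around these genes.

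Fibroblasts are mesenchymal cells, and the factors encoded by these genes are known for setting up and keeping that identity in the embryo. Twist1 and Twist2 are basic helix-loop-helix proteins that repress epithelial and muscle genes. Snai2 (Slug) is a zinc finger repressor of E-cadherin. Prrx1 is a paired-related homeobox factor of limb and face mesenchyme, and Tbx15 is a T-box factor of skeletal and dermal mesenchyme. Runx1 and Runx2 bind DNA together with CBFB, and Runx2 is the regulator that commits cells to the osteoblast lineage. Tead1 is a DNA-binding partner of YAP and TAZ in Hippo signalling, and Osr1 marks connective tissue and kidney progenitors. H3K27ac is a histone mark of active promoters and enhancers, p300 an acetyltransferase that deposits it, Brd3 a bromodomain protein that binds acetylated chromatin, CEBPB a basic leucine zipper transcription factor, and H3K27me3 a mark of silenced chromatin.

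Twist1 (chr12:34642536-34644682), Snai2 (chr16:14705945-14709488) and Osr1 (chr12:9581248-9588305) are short. Twist2 (chr1:93698038-93744605), Prrx1 (chr1:165175247-165243841) and Tbx15 (chr3:99044304-99158182) are of middle length, and Runx1 (chr16:92601712-92826311), Runx2 (chr17:44632936-44951746) and Tead1 (chr7:119822832-120050319) are long. With 50 kb on each side the windows spanned 102 to 419 kb. The windows of Twist1, Runx2 and Tbx15 also held the protein-coding genes Ferd3l, Supt3h and Wars2, so peaks there were counted with the member. A start here is the first base of any protein-coding transcript, of which Runx2 and Tead1 have 8 each, Runx1 5, Prrx1 4 and the other members 1, so a start can lie inside the gene. In the MEF libraries the label was checked by H3K27ac peaks at transcript starts of marker genes. Of 11 fibroblast markers 11, 10, 11 and 11 had such a peak in WT replicates 1 and 2 and DKO replicates 1 and 2, whereas none of 4 epithelial and none of 3 skeletal muscle markers had one in any library. Among 4 endothelial markers 0, 0, 1 and 0 had a peak, among 4 macrophage and blood markers 2 in each library (Csf1r and Cd68), and among 3 neural markers 1 (Tubb3). Values of 4 libraries are given below in the order WT 1, WT 2, DKO 1 and DKO 2.

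The sequences of the strongest CEBPB sites are shown first, because CEBPB had the lowest number of DKO peaks, as a share of WT, among the MEF antibodies with peaks near these genes. A site is the merged interval of overlapping peaks of the 4 libraries of an antibody, and strength is the mean −log10 q of its peaks. Each line gives 120 bases around the summit of the strongest site of a gene, on the + strand of mm9, 5′ to 3′. Capitals mark matches to TTGCNNAA, letters found in many C/EBP sites, on either strand. The following 6 sites were WT-only, meaning that each WT library had a peak and no DKO library did.
Osr1 chr12:9598222-9598341: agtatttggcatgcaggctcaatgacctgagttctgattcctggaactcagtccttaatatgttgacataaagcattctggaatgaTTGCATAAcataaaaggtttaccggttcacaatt
Prrx1 chr1:165215432-165215551: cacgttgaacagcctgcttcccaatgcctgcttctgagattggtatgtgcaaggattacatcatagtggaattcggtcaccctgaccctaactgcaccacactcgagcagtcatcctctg
Runx1 chr16:92715818-92715937: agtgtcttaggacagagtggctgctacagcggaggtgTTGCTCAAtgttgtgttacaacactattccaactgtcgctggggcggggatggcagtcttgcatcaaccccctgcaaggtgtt
Runx2 chr17:44855338-44855457: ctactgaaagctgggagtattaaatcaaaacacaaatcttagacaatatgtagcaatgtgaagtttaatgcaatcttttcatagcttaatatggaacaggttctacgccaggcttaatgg
Snai2 chr16:14703977-14704096: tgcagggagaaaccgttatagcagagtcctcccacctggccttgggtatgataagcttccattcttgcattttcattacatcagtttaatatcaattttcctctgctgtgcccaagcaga
Tead1 chr7:119930501-119930620: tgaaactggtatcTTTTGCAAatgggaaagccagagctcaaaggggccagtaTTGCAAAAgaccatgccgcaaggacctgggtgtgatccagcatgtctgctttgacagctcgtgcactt

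The next 4 sites were called in all 4 libraries, and are shown for contrast.
Prrx1 chr1:165222268-165222387: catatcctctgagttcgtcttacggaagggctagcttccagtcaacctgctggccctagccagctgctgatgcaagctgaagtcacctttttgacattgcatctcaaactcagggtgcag
Runx1 chr16:92608942-92609061: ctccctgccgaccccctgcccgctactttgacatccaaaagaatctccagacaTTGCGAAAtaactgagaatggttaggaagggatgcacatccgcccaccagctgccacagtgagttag
Runx2 chr17:44846948-44847067: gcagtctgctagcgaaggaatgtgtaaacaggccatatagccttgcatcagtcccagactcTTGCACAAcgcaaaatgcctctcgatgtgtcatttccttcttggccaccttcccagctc
Tead1 chr7:119957345-119957464: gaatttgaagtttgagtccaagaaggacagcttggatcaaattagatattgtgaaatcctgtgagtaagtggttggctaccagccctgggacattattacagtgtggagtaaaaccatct

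TTGCNNAA was present within these 120 bases at 3 of the 6 WT-only sites (Osr1, Runx1 and Tead1, the last with 2 matches) and at 2 of the 4 sites kept in all libraries (Runx1 and Runx2). TGANTCA, letters found in many AP-1 sites, matched in none of the 10 stretches. Over all 24 CEBPB sites of the members called in both WT libraries, with 100 bp searched on each side of the summit and on both strands, TTGCNNAA was present at 11 (45.8%), against 52.6% of the 12086 such sites of the genome. TGANTCA was present at 4 of 24 (16.7%, against 24.6%). One site held both motifs (4.17%, against 11.4%), and 10 held neither (41.7%, against 34.2%). By class, TTGCNNAA was found at 7 of 17 WT-only sites (41.2%, against 48.8% genome-wide) and at 4 of 7 retained sites (57.1%, against 57.2%), retained meaning that at least 1 DKO library also called the site. The shares at the members therefore lay near or below those of all sites, and the differences were not tested. A match is a description of the letters only.

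In WT MEFs every member had peaks of active marks. All 9 windows held H3K27ac and Brd3 peaks, where 81.0% and 73.9% of all gene windows held one in any library. CEBPB peaks were found near 7 members (51.8% of all genes) and p300 peaks near 6 (28.4%). The median member window had 27 H3K27ac and 15 Brd3 peaks in WT, and the median gene window 6 and 2.5. The member windows were longer, with a median of 169.0 kb against 116.0 kb. Per 100 kb of window, the WT medians were 9.79 H3K27ac and 5.46 Brd3 peaks at the members and 4.28 and 1.72 over all genes, and all 9 members lay above the median gene for both. H3K27me3 peaks were 0 in every member window and library, while 6.39% of all gene windows had one. The H3K27me3 lists held just 553, 388, 213 and 117 peaks over the whole genome, so an absence of peaks says little about the mark. Per 100 kb of window, WT H3K27ac peaks were densest at Prrx1 (34.0), Tead1 (28.6) and Twist2 (18.4), and ranged from 4.81 to 12.6 at the other 6.

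H3K27ac was called around all 9 genes in both genotypes, and no difference in the number of its peaks passed the test. In simulated data with 200 changed windows, this fit called 0.0% of the 171 windows changed 4-fold that it tested. With a spread pooled over windows of like level, 37.4% were called. Where few windows change, a missed threshold therefore says little about whether a window differed. The simulation does not give the power where many change: for Brd3 the fit called 0.0% of 101 simulated windows and 48.2% of the real ones. Over the 9 windows the libraries held 291, 301, 273 and 260 peaks, a WT mean of 296.0 ± 7.07 and a DKO mean of 266.5 ± 9.19 (SD, n = 2). That is a log2 change of −0.15, and the whole lists changed by −0.13. With every list cut to its 76968 strongest peaks the windows held 260, 271, 273 and 258 (log2 0.0). Prrx1 had 57, 58, 46 and 46 peaks, and both DKO libraries were below both WT libraries. Its difference on the log2(peaks + 1) scale was −0.32 (SE 0.032), with an adjusted p of 0.153 by limma over all windows tested. Runx2 had 41, 41, 35 and 33 (−0.26, SE 0.048, limma adjusted p 0.177), and Twist2 had 25, 29, 23 and 24. These 3 genes were the ones whose WT libraries lay above both DKO libraries, a pattern seen in 28.5% of windows with a peak. Tead1 (96, 91, 92 and 88), Runx1 (38, 44, 36 and 39), Tbx15 (13, 19, 16 and 15), Osr1 (10, 6, 10 and 5), Twist1 (7, 7, 9 and 7) and Snai2 (4, 6, 6 and 3) overlapped or tied. Among all genes limma called 0 of 14485 windows (0.0%) in either direction at an adjusted p under 0.05. At an unadjusted p under 0.05, 2152 windows had fewer and 487 more peaks in DKO. With the spread pooled over windows of like level, an alternative chosen after seeing the data, 962 windows were called with fewer and 176 with more peaks, but no member was. The members' median change was −0.12 and that of all windows −0.14.

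**Figure D1:**
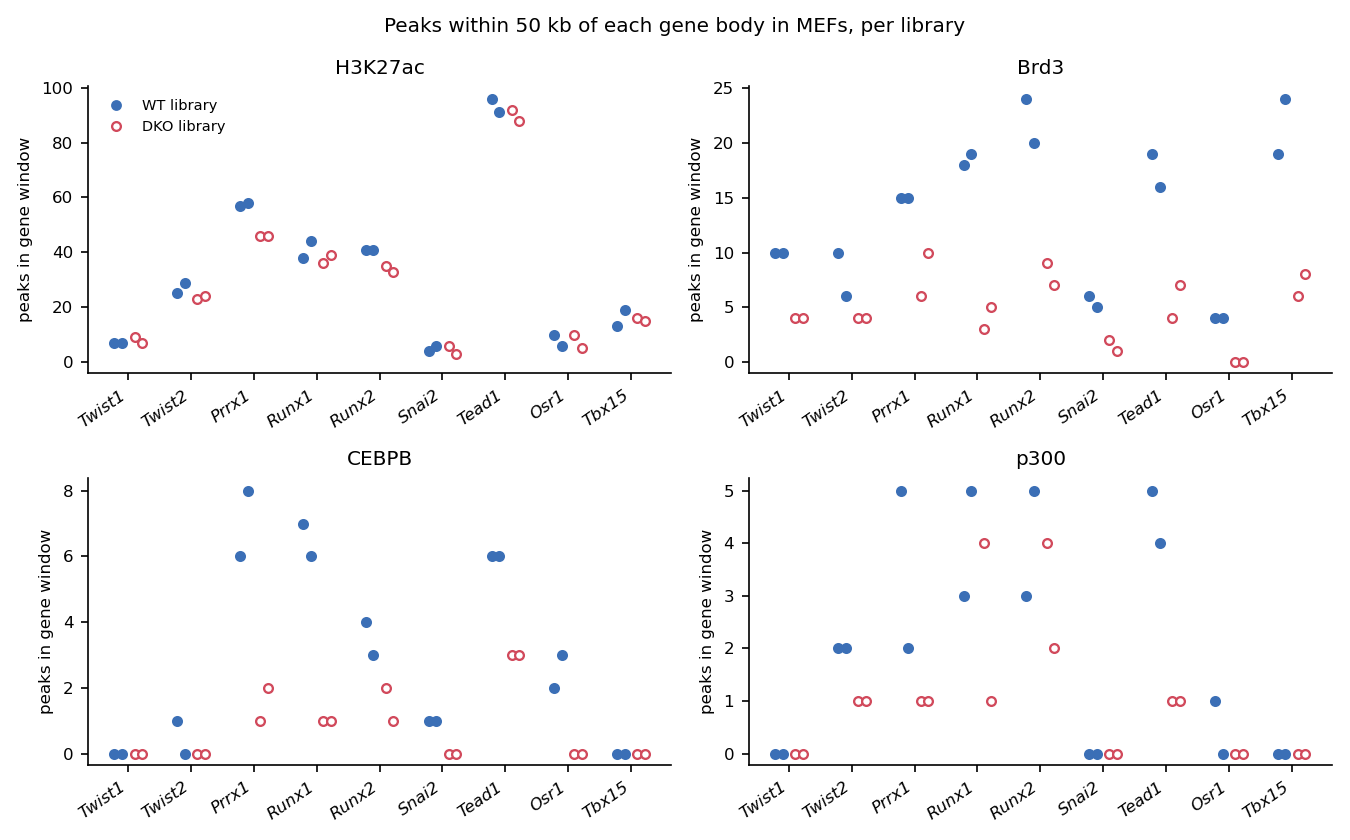
Peaks within 50 kb of each member in MEFs (y axis, number of peaks), 1 point per library, for H3K27ac, Brd3, CEBPB and p300. For Brd3 both DKO libraries (open) lie below both WT libraries (filled) at all 9 genes, whereas for H3K27ac this is so at 3.

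The length of DNA under H3K27ac peaks did change at 3 members. At Tbx15 it fell from 21056 and 21073 bp in WT to 14086 and 13525 bp in DKO (log2 change −0.61, SE 0.062, limma adjusted p 0.000161). At Osr1 it fell from 5823 and 4643 bp to 3345 and 2858 bp (−0.73, SE 0.14, limma adjusted p 0.0056). At Twist2 it rose from 16155 and 16607 bp to 18704 and 19256 bp (0.21, SE 0.061, limma adjusted p 0.0375). In none of these genes did the genotypes overlap. Background for such calls was 10.3% of windows with fewer and 5.93% with more bases in DKO, out of 14485, so 2 and 1 of 9 members are counts close to it. Prrx1, with fewer peaks in DKO, covered 44029, 43064, 43871 and 47788 bp, a difference of 0.07 that did not pass (limma adjusted p 0.399).

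All 9 genes carried H3K27ac within 1000 bp of a transcript start in every library, where 49.7% of all genes did in both WT libraries and 96.4% of these also in both DKO libraries. The stretch covered by those peaks at Osr1 measured 3296, 2618, 1072 and 987 bp, and at Tbx15 it measured 8972, 9067, 5933 and 6188 bp. At Twist1 it was 6414, 3528, 3199 and 3231 bp, where 1 WT library stood far above the other 3. In these 3 genes and Runx2 both DKO values lay below both WT values, 4 of 9 members, beside 24.3% of the 11728 genes with a peak at a start. At Prrx1 the order was the other way, with 9563, 9158, 12102 and 12117 bp, as it was at Runx1 and Snai2, 3 of 9 members beside 19.7% of genes. These lengths were not tested.

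Fold enrichment, the ratio of stacked reads at the summit to the local background, was compared at sites called in all 4 libraries. For H3K27ac, 122 member sites were tested, of which 8 fell and 3 rose in DKO at an adjusted p under 0.05. Of all 42234 such sites 5.6% fell and 2.79% rose, and the median log2 difference was −0.09 at member sites and −0.08 at all. Tbx15 held 4 of the 8 lower sites. The site at its protein-coding start (chr3:99057239-99064151), which lies inside the annotated gene body, had fold enrichments of 31.3, 21.2, 10.4 and 10.2 (log2 −1.33, SE 0.206, limma adjusted p 0.000496). Its neighbours chr3:99044296-99045872, chr3:99051142-99054772 and chr3:99064291-99067939 differed by −1.22, −0.80 and −0.99, all with DKO below WT. Runx2 held 2, with 11.1, 11.2, 5.75 and 6.67 at chr17:44875185-44875913 (−0.85, limma adjusted p 0.0299) and a difference of −1.10 at chr17:44951435-44951950, over the 5′ end of the gene. Tead1 held 2 lower sites and 1 higher. The second of its lower ones, in an intron (chr7:120011168-120012647), had 14.9, 14.8, 8.12 and 7.7 (−0.91, limma adjusted p 0.012). The higher one, upstream (chr7:119799323-119800759), had 9.03, 8.49, 14 and 16.1 (0.78, limma adjusted p 0.0264). The other 2 higher sites were both at Twist2. Just upstream of its start (chr1:93695858-93697884) the values were 18.7, 18.3, 28.2 and 25.6 (0.54, limma adjusted p 0.0462), and downstream (chr1:93753357-93755866) they were 5.08, 7.27, 11.9 and 11.4 (0.94, limma adjusted p 0.02). Left out in turn, WT replicate 1, WT replicate 2, DKO replicate 1 and DKO replicate 2 left 5, 5, 5 and 7 lower and 2, 1, 1 and 0 higher sites. With each library centred on its median, 6 member sites were called lower and 4 higher, and over all sites the calls were 1527 lower and 1641 higher in place of 2367 and 1177.

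**Figure D2:**
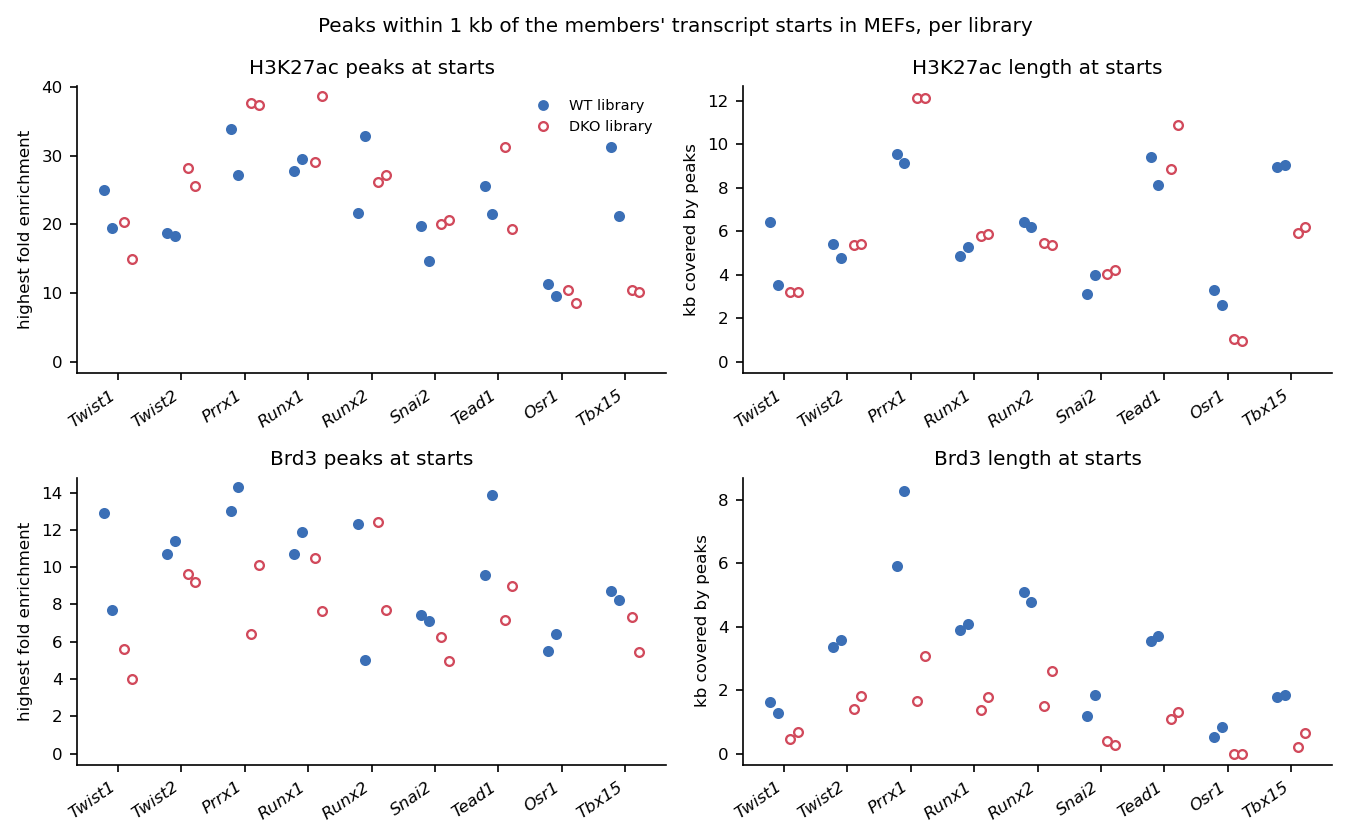
H3K27ac (top) and Brd3 (bottom) peaks within 1 kb of the members' transcript starts in MEFs, as the highest fold enrichment (left) and the length covered in kb (right), 1 point per library. Tbx15 and Osr1 have shorter H3K27ac at the start in DKO, Prrx1 longer, and Brd3 covers less of every start in both DKO libraries.

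Brd3 peaks were fewer around every one of the 9 genes in DKO MEFs. The windows together held 125, 119, 38 and 46 peaks, with means of 122.0 ± 4.24 in WT and 42.0 ± 5.66 in DKO (SD, n = 2), so DKO held 34.4% of WT. The whole lists had 31404, 33072, 8970 and 11549 peaks, and DKO held 31.8% of WT, so the decrease at the members was about that of the genome. Both DKO libraries lay below both WT libraries at 9 of 9 members, as they did in 71.7% of 16422 windows with a peak. In bulk chromatin a weaker peak in all cells and a peak in fewer cells cannot be told apart.

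Of the 8 members with a mean of at least 3 Brd3 peaks, 6 were called with fewer peaks, beside 48.2% of all 6933 windows tested (8 windows, 0.115%, had more). Runx1 fell most, from 18 and 19 peaks to 3 and 5 (log2 −1.99, SE 0.257, limma adjusted p 0.0282). Tead1, the partner of YAP, fell from 19 and 16 to 4 and 7 (−1.54, SE 0.31, limma adjusted p 0.0422). Tbx15 fell from 19 and 24 to 6 and 8 (−1.49, SE 0.213, limma adjusted p 0.0309). Snai2 fell from 6 and 5 to 2 and 1 (−1.40, SE 0.272, limma adjusted p 0.0405), and Runx2 from 24 and 20 to 9 and 7 (−1.36, SE 0.182, limma adjusted p 0.0293). Twist1 fell from 10 and 10 to 4 and 4 (−1.14, limma adjusted p 0.00928), and its small SE (0.0571) comes from tied replicates. With peaks merged within 1000 bp the Twist1 difference was 0.16, in the opposite direction, 2 members were called (Prrx1 and Runx1), and 1074 windows of all genes had fewer peaks in place of 3343.

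The other 3 members had the same order of libraries but no call. Prrx1 had 15, 15, 6 and 10 Brd3 peaks (−0.87, SE 0.283, limma adjusted p 0.089), and Twist2 had 10, 6, 4 and 4 (−0.81, SE 0.283, limma adjusted p 0.0972). With the spread pooled over windows of like level all 8 were called, beside 75.0% of the 6933 windows under that fit. The adjusted p of its t test was 0.00115 at Prrx1 and 0.0401 at Twist2. Osr1 had 4, 4, 0 and 0 and was not tested because its mean was under 3. Measured as bases covered in place of peaks, Brd3 fell at all 8 members tested, beside 96.3% of windows. The members' median change was −1.38 and that of all windows −1.16. Leaving out any 1 library lowered the 6 calls to 3 (either DKO library) or 2 (either WT library). Cutting every list to its 8970 strongest peaks left 29, 27, 38 and 34 peaks in the members' windows (log2 0.36, the opposite direction) and no member called, and 32 windows of all genes had fewer and 35 more in DKO in place of 3343 and 8. A measure of depth, the lowest background solved from the peak values, was 1.75, 1.89, 1.24 and 1.54 stacked reads in the Brd3 libraries. After scaling to the lowest, the member totals were 120, 109, 38 and 46 (−1.45).

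**Figure D3:**
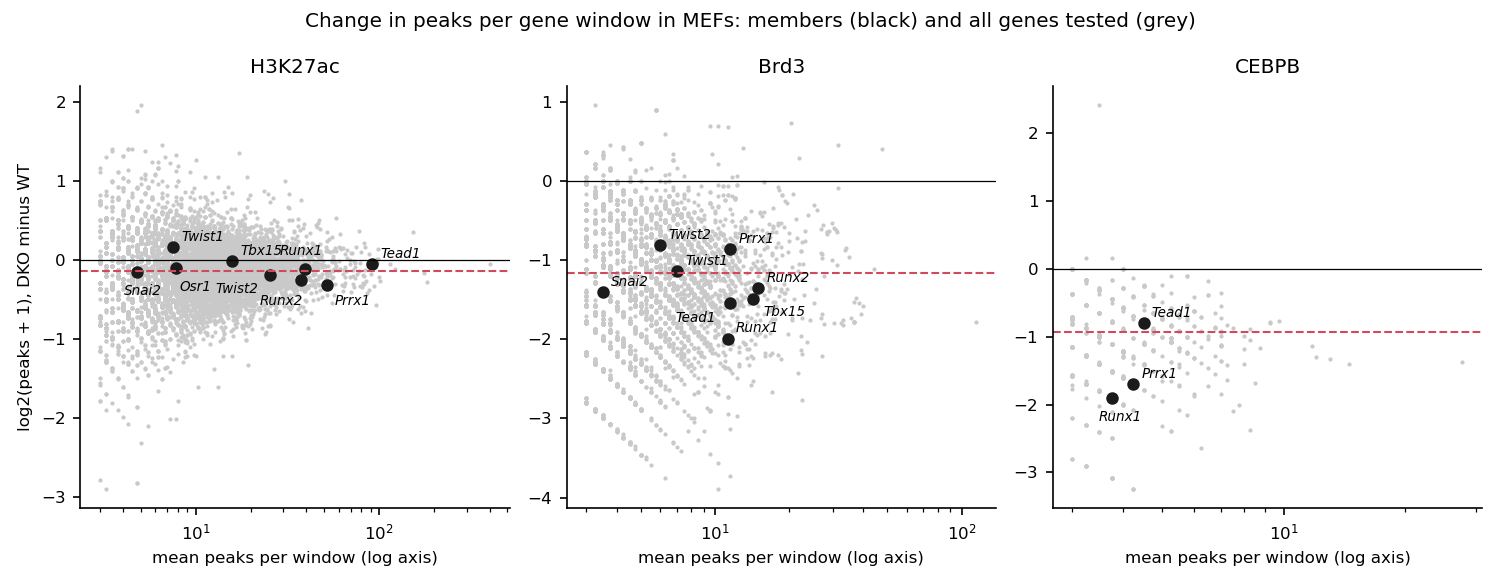
Change in peaks per gene window in MEFs, log2(peaks + 1) in DKO minus WT (y axis), against mean peaks per window (x axis, log scale), for all genes tested (grey) and members (black). The dashed line is the median of all genes (−0.14 for H3K27ac, −1.16 for Brd3, −0.94 for CEBPB), and the members lie on both sides of it within the cloud.

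Most Brd3 sites seen in WT had no peak in DKO, and the share was higher for sites away from the starts, which was not tested for these genes. Among 72 member sites called in both WT libraries, 41 (56.9%) were WT-only, against 52.0% of 20626 sites in the genome, and 0 of 20 sites called in both DKO libraries were DKO-only (0.308% in the genome). Sites that reached within 1000 bp of a start were WT-only in 6 of 22 cases (27.3%, against 39.7%) and the others in 35 of 50 (65.1% in the genome). By gene, the WT-only sites were 9 of 12 at Runx1, 9 of 15 at Runx2, 7 of 11 at Tead1, 5 of 8 at Prrx1, 5 of 10 at Tbx15, 2 of 2 at Osr1, 2 of 6 at Twist1, 1 of 5 at Twist2 and 1 of 3 at Snai2. By mean −log10 q, the strongest of the 41 was in an intron of Runx2 (chr17:44683677-44684085, fold enrichment 8.52 and 8.35), followed by one upstream of Tead1 (chr7:119806091-119807561, 5.49 and 7.36) and one in an intron of Runx1 (chr16:92623989-92624577, 6.47 and 5.38). With equal numbers of top peaks 1 site of the members was WT-only. Judged by 1 WT library alone, with WT replicate 1 or WT replicate 2 left out, 78 or 72 sites were.

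H3K27ac was still called at most sites where Brd3 was not. An exception was the strongest WT-only Brd3 site, in a Runx2 intron (chr17:44683677-44684085), which overlapped no WT H3K27ac peak. At 39 of the 41 WT-only Brd3 sites both WT libraries had an H3K27ac peak, as at 9974 of the 10731 in the genome, and at 37 of these (94.9%) both DKO libraries had one too, close to 96.5% over all such sites of the genome.

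At the starts, Brd3 was called at all 9 genes in both WT libraries (39.4% of all genes) and at 8 in both DKO libraries, Osr1 being the exception. Of all genes with a Brd3 peak at a start in both WT libraries, 44.7% had one in both DKO libraries. The Osr1 start (chr12:9581245-9581802) had fold enrichments of 5.51 and 6.44 in WT. The length covered by Brd3 at the start was below both WT values in both DKO libraries at every member, for example 5932, 8294, 1671 and 3076 bp at Prrx1 and 1200, 1840, 391 and 281 bp at Snai2. The same order was found at 80.3% of the 10126 genes with a Brd3 peak at a start. Of 20 member sites called in all 4 libraries, 2 fell and none rose in fold enrichment (20.6% and 0.387% of 5422 sites in the genome), both at Twist1. Just upstream of its start (chr12:34641453-34642254) the values were 12.9, 6.3, 3.06 and 3.58 (log2 −1.44, SE 0.313, limma adjusted p 0.00852), and downstream (chr12:34651430-34651858) they were 10.3, 10.4, 4.96 and 3.42 (−1.33, SE 0.262, limma adjusted p 0.00591). Neither passed once each library was centred on its median, and over all sites that centring gave 36 lower and 45 higher in place of 1119 and 21. At the Prrx1 start (chr1:165237553-165245846) the values were 13, 14.3, 10.5 and 10.1 and did not pass (limma adjusted p 0.183). At an internal start of Runx2 (chr17:44870080-44875027) they were 12.3, 5.03, 12.4 and 7.68, and the genotypes overlapped.

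CEBPB peaks were fewer in DKO MEFs around each of the members that had them repeatedly in WT, and their total was 25.9% of WT. The 9 windows held 27, 27, 7 and 7 peaks, while the whole lists held 14197, 14692, 4886 and 5328, where DKO had 35.4% of WT. Prrx1 had 6, 8, 1 and 2 peaks (log2 −1.70, SE 0.315, limma adjusted p 0.0401). Runx1 had 7, 6, 1 and 1 (−1.90, SE 0.0882, limma adjusted p 0.00311), and Tead1 had 6, 6, 3 and 3. In Tead1 the replicates tied in both genotypes, so its difference of −0.81 is given with the pooled SE of 0.191 (t test adjusted p 0.000111). That fit called 84.5% of the windows tested in the genome with fewer peaks. All 3 members that could be tested were called, beside 62.3% of those 717 windows with their own spread, whose median change was −0.94. Left out in turn, WT replicate 1 left 1 call, and each of the other 3 libraries left 2. Runx2 had 4, 3, 2 and 1 peaks, Osr1 2, 3, 0 and 0, Snai2 1, 1, 0 and 0, and Twist2 1, 0, 0 and 0. Twist1 and Tbx15 had none in any library. In 6 of the 7 windows with a peak both DKO libraries were below both WT libraries, against 60.4% of 11493 windows. Cutting every list to its 4886 strongest peaks left 9, 8, 7 and 6 peaks (−0.39) and no member called, and over all genes 20 windows had fewer and 11 more in place of 447 and 1. The depth of the CEBPB libraries could not be solved and is unknown.

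Of 24 CEBPB sites called in both WT libraries, 17 (70.8%) were WT-only, against 55.2% of 12086 in the genome, and none of the 24 lay within 1000 bp of a start (8.22% in the genome). With equal numbers of top peaks 2 sites of the members were WT-only. By gene these were 5 of 6 at Prrx1, 5 of 6 at Runx1, 3 of 6 at Tead1, 1 of 3 at Runx2, 2 of 2 at Osr1 and 1 of 1 at Snai2. None of the 6 sites called in both DKO libraries was DKO-only (1.89% in the genome). The sites printed above with a TTGCNNAA match were the 3 strongest of the 6 in the WT-only class. The Runx1 site (chr16:92715762-92715987), in an intron 18305 bp from the nearest start, had fold enrichments of 23.6 and 19.2 in WT. The Osr1 site (chr12:9598145-9598394), 17034 bp downstream of the start, had 18.5 and 20.6, and the intronic Tead1 site (chr7:119930475-119930649) had 9.9 and 11.2. All 3 lay outside H3K27ac, p300 and Brd3 peaks in every MEF library.

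Among the printed WT-only sites, those without a match were weaker. This order holds for the printed sites alone. In the Prrx1 window, weaker WT-only sites such as chr1:165197469-165197609 held a match. Snai2 (chr16:14703957-14704142), 1908 bp upstream of the start, had 6.64 and 6.45. The introns of Prrx1 (chr1:165215220-165215644) and Runx2 (chr17:44855302-44855503) had 4.81 and 7.26, and 4.69 and 6.98. At Prrx1 both WT libraries had a Brd3 peak over the site and no DKO library did, while H3K27ac was called there in all 4.

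At all 6 member sites called in every library CEBPB fold enrichment fell in DKO, beside 67.7% of 4193 sites in the genome, of which 4.27% rose. The median log2 difference was −1.36 at the 6 sites and −0.68 at all. The strongest was in an intron of Runx2, 24634 bp from the nearest start (chr17:44846854-44847155), with fold enrichments of 62.5, 66.9, 12.9 and 18.5 (−2.06, SE 0.187, limma adjusted p 3.82e-11). At Tead1 the site chr7:119931770-119932051 had 18.8, 19.2, 3.18 and 4.68 (−2.30, SE 0.197, limma adjusted p 1.12e-11). The site chr7:120061417-120061690, downstream of the gene, had 21.3, 21.5, 6.8 and 6.71 (−1.66, SE 0.169, limma adjusted p 3.78e-10). These 3 also passed when each library was centred on its median. The other 3 did not pass then, namely chr7:119957236-119957525 at Tead1 (32.2, 29.2, 13.4 and 16.3), chr1:165222224-165222468 at Prrx1 (15.9, 18.7, 8.62 and 10.4) and chr16:92608884-92609117 at Runx1 (12.1, 12.9, 5.84 and 7.03). Over all sites the centring gave 960 lower and 1169 higher in place of 2837 and 179.

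**Figure D4:**
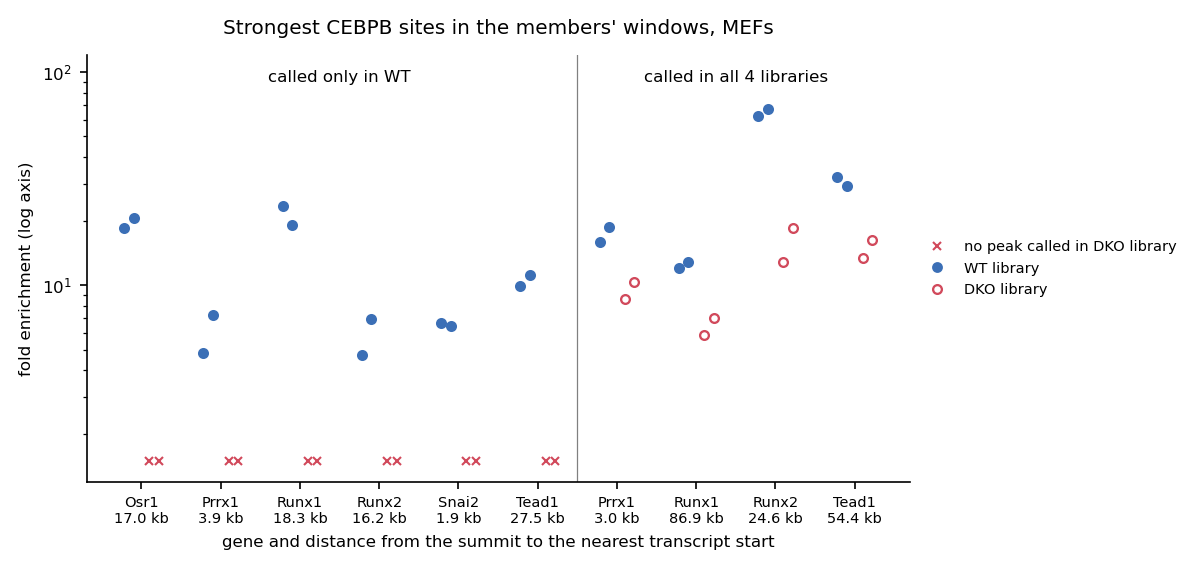
Fold enrichment (y axis, log scale) of the strongest CEBPB site of each member, 1 point per library, for sites called only in WT (left) and in all 4 libraries (right), with the distance from the summit to the nearest transcript start under each name. Crosses at the bottom mark DKO libraries without a called peak and carry no value. At the shared sites both DKO libraries lie below both WT libraries, as at Runx2 (62.5 and 66.9 against 12.9 and 18.5).

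Most WT-only CEBPB sites of the members lay over H3K27ac. Of the 17 WT-only sites 12 (70.6%) overlapped an H3K27ac peak of a WT library, against 35.6% of all WT-only sites. Likewise 8 (47.1%) overlapped a WT Brd3 peak, against 16.0%, and 4 (23.5%) a WT p300 peak, against 11.5%. Of the 7 retained sites of the members 4 (57.1%) overlapped a WT H3K27ac peak, against 47.1% of all retained sites. The member windows themselves were rich in H3K27ac, Brd3 and p300 peaks, and these shares were not tested. At 9 of the WT-only sites H3K27ac was called in both WT libraries, and 8 of these (88.9%, against 84.2%) had it in both DKO libraries. Brd3 was called in both WT libraries at 5 sites and in both DKO libraries at 0 of these (0.0%, against 15.6%).

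Single sites showed the marks parting. Upstream of Tead1 (chr7:119806856-119807067) CEBPB, p300 and Brd3 were each WT-only, while H3K27ac was called in all 4. In an intron of Prrx1 (chr1:165222224-165222468) CEBPB was lowered but called in all 4 libraries, p300 (4.97 and 3.57 in WT) and Brd3 were WT-only, and H3K27ac was called in all 4. At the intronic Runx2 site, where CEBPB fell by 2.06 on the log2 scale, p300 (chr17:44846864-44847153) had fold enrichments of 24.8, 22, 19.8 and 17.5, a difference of −0.33 (SE 0.185) that did not pass (limma adjusted p 0.289), and H3K27ac was called in all 4. At the intronic Runx1 site chr16:92612830-92613043 H3K27ac was called in both WT and neither DKO library, the single such case among the 17 WT-only CEBPB sites.

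p300 peaks were few and were not called as changed. The 9 windows held 19, 18, 11 and 6, with means of 18.5 ± 0.707 and 8.5 ± 3.54 (SD, n = 2). DKO had 45.9% of WT here and 49.5% in the whole lists. Cutting every list to its 2974 strongest peaks left 4, 12, 11 and 5 peaks (log2 0.0) and no WT-only site of the members. Runx1 had 3, 5, 4 and 1 peaks (log2 −0.63, limma adjusted p 0.467) and Runx2 had 3, 5, 4 and 2 (−0.34, limma adjusted p 0.539), with overlap between genotypes in both. Tead1 (5, 4, 1 and 1), Prrx1 (5, 2, 1 and 1) and Twist2 (2, 2, 1 and 1) had both DKO libraries below both WT libraries but were under the mean of 3 needed for a test. Such an order was found at 3 of 6 members with a peak, against 23.8% of 6305 windows. Osr1 had 1, 0, 0 and 0, and Twist1, Snai2 and Tbx15 had none. Limma called 0 of the 2 members tested, beside 8.85% of 260 windows with fewer and 0.0% with more peaks. Neither of the 2 was under an unadjusted p of 0.05. Of 12 member sites called in both WT libraries 4 (33.3%, against 33.6%) were WT-only, all 4 with H3K27ac in both WT and both DKO libraries. In the genome 834 of 1393 WT-only p300 sites had H3K27ac in both WT libraries, and 85.3% of these in both DKO libraries. With WT replicate 1, WT replicate 2 or DKO replicate 1 left out, WT-only p300 sites numbered 9, 10 and 6. None of the 5 sites called in both DKO libraries was DKO-only (2.91% in the genome). None of the 12 sites lay within 1000 bp of a start (2.99% in the genome). At 5 sites called in all libraries none passed in fold enrichment (of 1730 in the genome 3.76% fell and 0.231% rose). The lowest background was 1.58, 1.15, 1.22 and 1.27 in these libraries. Without DKO replicate 2 the log2 change of the total was −0.75, in place of −1.12.

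H3K27ac sites that were called in 1 genotype only were scattered. Of 167 member sites called in both WT libraries 26 (15.6%, against 11.2%) were WT-only, and of 155 called in both DKO libraries 15 (9.68%, against 8.83%) were DKO-only. At the starts 1 of 26 sites was WT-only (3.85%, against 3.29%), and away from them 25 of 141 (17.7%, against 14.6%). The strongest WT-only site was in an intron of Runx2 (chr17:44638572-44639542, fold enrichment 10.5 and 5.93), and the strongest DKO-only site was upstream of Prrx1 (chr1:165251798-165252236, 8.43 and 8.13). With 1 library left out, a single library decides a genotype, and WT-only sites then numbered 67 (WT replicate 1), 59 (WT replicate 2), 32 (DKO replicate 1) and 39 (DKO replicate 2), and DKO-only sites 25, 23, 45 and 41.

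Other mesenchymal and lineage genes were counted in the same way from lists by name. Of 23 relatives and partners of the members, 13 could be tested for Brd3 and 9 were called with fewer peaks, with a median change of −1.45, beside the 48.2% of all windows and their median of −1.16 given above. Examples were Prrx2, the paralogue of Prrx1 (10, 8, 2 and 1, log2 −2.02, limma adjusted p 0.0306), Yap1, the coactivator of Tead1 (10, 11, 1 and 3, −2.02, limma adjusted p 0.0463), and Tcf12, an E protein that pairs with Twist1 (7, 9, 3 and 4, −1.0, limma adjusted p 0.0422). Tead3 had 13, 13, 12 and 10 (−0.23, limma adjusted p 0.177). Of 24 other mesenchymal regulators, 11 could be tested and 4 were called (median −1.44). The windows of 2 of these 11, Foxc2 and Foxf1a, held the same Brd3 counts (15, 14, 0 and 5). Meis1 had 22, 17, 16 and 14 (−0.35, limma adjusted p 0.174). Among the ESC factors 1 of 1 was called, namely Tbx3, which also stands among the mesenchymal regulators, and among the rB factors 1 of 3, namely Ets1 (17, 19, 0 and 2, −3.45, limma adjusted p 0.0414). For H3K27ac none of the 17, 16, 4 and 6 genes tested in these lists was called, with limma calling 0 of all windows as given above. H3K27me3 peaks, absent at the members, were found near 3 of the relatives, 4 of the other mesenchymal regulators and 4 of the rB factors.

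In ESCs and rBs the lists of lineage factors served as a contrast. Klf4 peaks were found near 2 members (48.6% of all genes), SOX2 near 4 (63.0%), OCT4 near 7 (79.1%), NANOG near 8 (89.9%) and CTCF, an architectural protein that is not specific to a lineage, near 9 (91.9%). In rBs IKAROS and ETS1 had peaks near Runx1 alone (43.5% and 37.7% of all genes), and IRF8, PAX5 and OCT2 near no member (8.7%, 3.2% and 0.829%). Runx1, a blood regulator as well, had 2 IKAROS peaks in each of the 4 libraries and 3, 1, 0 and 0 ETS1 peaks. Both IKAROS sites lay at its first start, with fold enrichments of 13.4, 14.1, 5.2 and 2.81 at chr16:92825419-92826321 and 11.7, 7.01, 4.16 and 7.53 at chr16:92826487-92827166, where the genotypes overlapped. The IKAROS and ETS1 peak counts were not tested, as the means were under 3, and fold enrichment was not tested at any rB site.

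Tead1 was the member with the most ESC peaks, and in the median gene window the WT mean was 3.0 NANOG peaks. Its window held 26, 29, 30 and 35 NANOG peaks, 4, 6, 6 and 8 SOX2 peaks, and 6, 6, 9 and 11 OCT4 peaks. OCT4 peaks at Tead1 rose in DKO (log2 0.65, SE 0.119, limma adjusted p 0.0452), beside 43.1% of 3328 windows, and the whole OCT4 lists were longer in DKO by 1.28 on the log2 scale. With equal numbers of top peaks the Tead1 difference was −0.22, in the opposite direction. Without WT replicate 1 or WT replicate 2 the OCT4 call was lost. CTCF peaks there were 12, 12, 15 and 15, a difference of 0.30. Its replicates tied. It was called with the pooled spread (t test adjusted p 0.019), where 3.42% of the 16686 windows were called with more peaks. It was also called with its own spread (limma adjusted p 0.000141), where 6.73% were. NANOG peaks at Runx1 were 9, 9, 12 and 12 (0.38, SE 0.0172, limma adjusted p 0.0136), beside 8.07% of windows with more. This call was lost with the pooled spread (t test adjusted p 0.0588), under which 24.7% of windows were called with more. NANOG peaks at Runx2 were 9, 8, 10 and 11 (0.28, limma adjusted p 0.189). OCT4 peaks there were 1, 2, 4 and 7 (1.37, SE 0.4, limma adjusted p 0.0833), a difference that was called with the pooled spread, as 77.5% of windows were. At an internal start of Tead1 (chr7:119834061-119835494 for NANOG), downstream of the start at the gene's 5′ end, OCT4 had a highest fold enrichment of 31.8, 37, 74.8 and 80.9, SOX2 18.6, 23.3, 27.7 and 29.9, and NANOG 72.6, 68.5, 60.4 and 56.1. Both DKO libraries were higher for OCT4 and SOX2 and lower for NANOG, an order found at 90.9%, 61.1% and 26.3% of the 592, 283 and 2962 genes with such a peak at a start in all 4 libraries. Twist2 had 5, 4, 4 and 5 NANOG peaks, and the other 5 members had at most 2 in any library. Snai2 held no ESC peaks other than 2 of CTCF in each library.

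**Figure D5:**
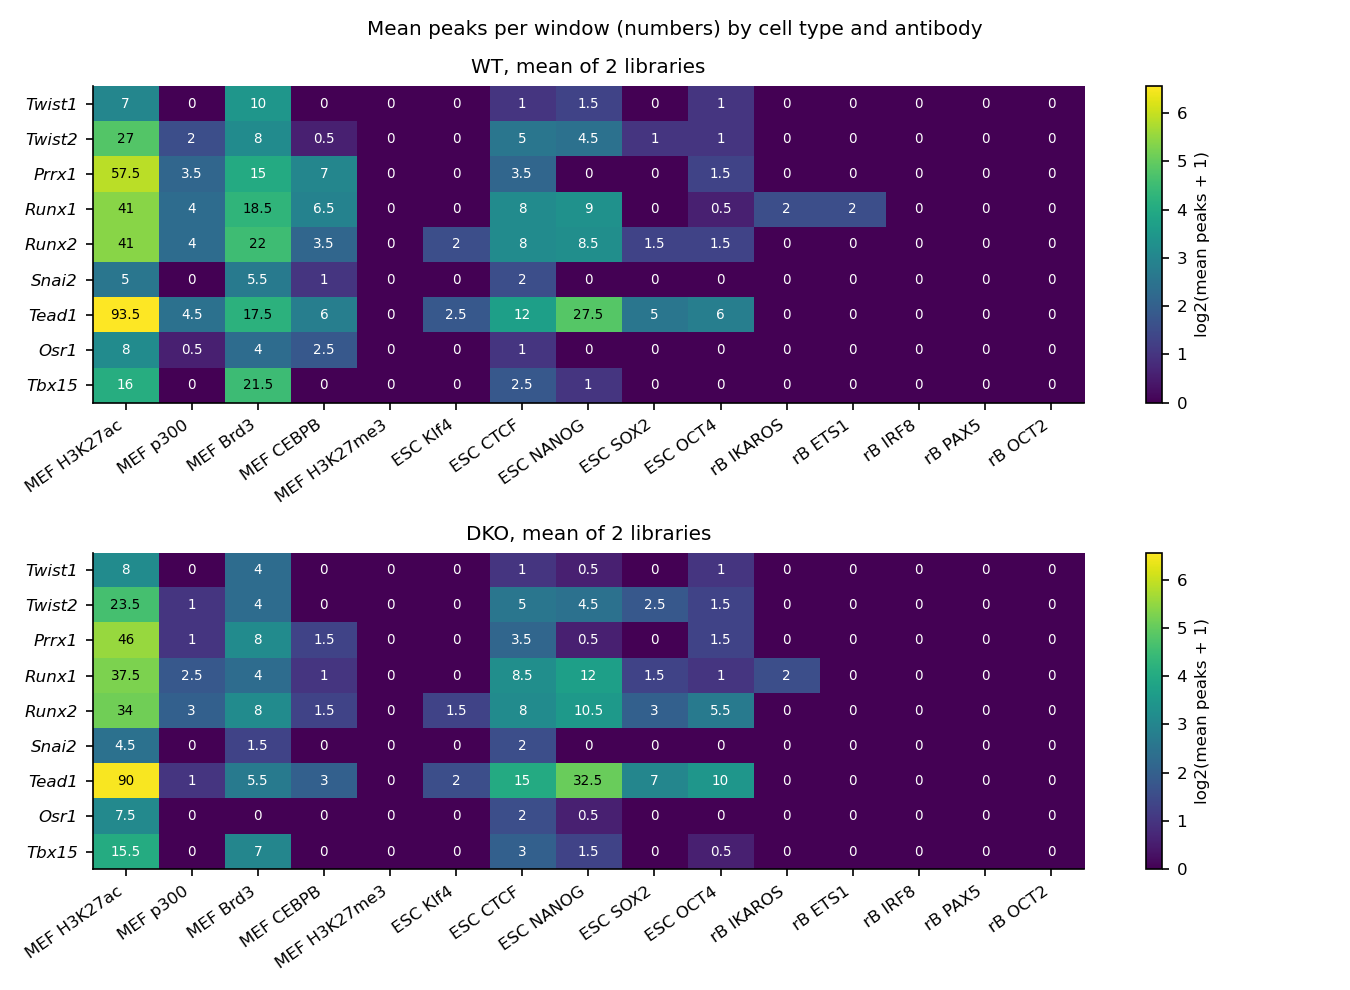
Mean peaks per window (numbers in the cells, 2 libraries each, with colour as log2 of the mean + 1) for each member and antibody in WT (top) and DKO (bottom). H3K27ac and Brd3 of MEFs fill every row in WT, Brd3 is lower in every row in DKO, and the rB columns are at 0 except at Runx1.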

How the data were processed

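Chromatin of WT and DKO mouse cells was analysed as narrow peak lists, 2 biological replicates per genotype and antibody. The authors trimmed reads with cutadapt 1.16, aligned them with BWA 07.17 to mm9, marked duplicates with Picard, removed blacklisted reads and called peaks per library against input with MACS2 2.1.1.20160309 (versions from the submitters' processing notes). The deposited fold enrichment is a ratio of pileup to local background at the summit. The deposited −log10 p and −log10 q belong to the authors' Poisson test, and the deposited score is 10 times −log10 q. Every deposited peak had a −log10 q of at least 2.0.

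Peaks overlapping a gene body extended by 50 kb were counted. Windows with a mean of at least 3 peaks were fitted as log2(peaks + 1), and sites called in all 4 libraries as log2 of the highest fold enrichment, with limma 3.58.1 (moderated, with trend) in R 4.3.3 over all windows or sites of an antibody, Benjamini-Hochberg adjusted at 0.05. Where replicates tie, this fit gives very small errors, so a spread pooled in 20 classes of mean level is given beside it. Its p-values come from an unmoderated t test with the degrees of freedom summed over the class, Benjamini-Hochberg adjusted. Peaks overlapping by 1 bp or more formed a site, placed at a start when it reached within 1000 bp of one. Python 3.11.15, pandas 2.3.3, numpy 2.4.6, scipy 1.17.1 and matplotlib 3.10.9 were used. The genome read for motifs was NCBIM37, the assembly of mm9, and 1 of 20 chromosomes had a peak past its end.

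Depth was solved from fold enrichment and −log10 p where at least 85% of pileups came out whole within 0.05, and is otherwise unknown. An exact permutation of 2 against 2 cannot give a p under 0.333, and nothing in the labels states that replicates came from separate animals, so p-values measure the spread between these libraries. The steps were tested on simulated data with 200 changed windows or sites. At Brd3 windows changed 4-fold, the window fit called 0.0% of the 101 changed windows fitted with their own spread and 3.96% with the pooled spread, over 6797 windows. At H3K27ac windows changed 4-fold it called 0.0% of 171 and 37.4%, over 14297 windows. The genes and lists were chosen with earlier results of these data known. Named sites are, per member and antibody, the WT-only, DKO-only and shared site with the highest mean −log10 q, and listed genes are at most 4 per list by their change. Alternatives covered windows of 10 and 100 kb, pseudocount 0.5, no filter, −log10 q of at least 4, fold enrichment of at least 4, bases covered, peaks merged within 1000 bp, equal numbers of top peaks, scaling to the lowest background, no trend, a replicate block and each replicate left out. The pooled spread and a crossed block were chosen after seeing the data.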

Additional observations from a re-analysis of the deposited data

How the results depend on the processing

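Of the results that count or total the members' peaks, 260 values under other settings kept their direction and stayed near the reported value and 48 moved. One reversed, the Brd3 total with equal numbers of top peaks. Of the values for single genes and the counts over all genes, 287 stayed near, 54 lost the call, 12 gained one, 62 moved and 11 reversed. That setting gave log2 changes of 0.363 for Brd3, 0.0 for H3K27ac, 0.0 for p300 and −0.387 for CEBPB, 0 member windows called for Brd3 and CEBPB, and 0 p300, 1 Brd3 and 2 CEBPB WT-only sites with 2 Brd3 DKO-only sites. By construction it removes differences in list length, so it holds no genome-wide change. Under it Brd3 differed by 0.161 at Twist2, 1.341 at Prrx1, 0.55 at Runx2 and 0.374 at Tbx15, and OCT4 by −0.222 at Tead1. Other Brd3 counts were 2 windows with peaks merged within 1000 bp (Twist1 then 0.161), 0 sites lower in fold enrichment with centred libraries, and 5 DKO-only sites with summits of 200 bp. CEBPB totals were −1.807 within 10 kb and −1.918 within 100 kb, and 3 CEBPB sites were lower with centred libraries. H3K27ac windows with fewer peaks numbered 1 without the filter and 2 by bases covered, with 1 higher by bases. Prrx1 then differed by 0.072 and Runx2 by 0.009, and Runx2 by 0.035 with merged peaks. No H3K27ac site was higher (0) by mean fold enrichment. p300 windows with fewer peaks numbered 2 without the filter and 1 within 100 kb. The cause of these shifts was not tested.

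With each library left out in turn, Brd3 windows called numbered 2 to 3 and CEBPB windows 1 to 2. Totals ranged from −0.187 to −0.117 (H3K27ac), −1.624 to −0.75 (p300), −1.683 to −1.407 (Brd3) and −1.948 to −1.948 (CEBPB). WT-only sites ranged from 32 to 67 (H3K27ac), 5 to 10 (p300), 46 to 78 (Brd3) and 17 to 20 (CEBPB), and DKO-only sites from 23 to 45, 0 to 2, 0 to 1 and 0 to 0. Sites lower in fold enrichment ranged from 5 to 7 (H3K27ac) and 2 to 3 (Brd3), and higher ones from 0 to 2 and 0 to 1. The p300 differences at Runx1 and Runx2 ranged from −1.292 to 0.029 and from −0.708 to 0.029, the highest without DKO replicate 2.

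The labels number the replicates without saying that equal numbers share a culture, and deviations of equal numbers correlated at −0.0263 for H3K27ac, −0.129 for p300, −0.0154 for Brd3 and 0.0307 for CEBPB windows. A replicate block left 0 member windows called for Brd3 (0 of all genes in place of 3343) and 3 for CEBPB (265 in place of 447), and the crossed pairing left 0 of all p300 windows in place of 23. Over all genes, Brd3 windows with fewer peaks numbered 5197 with the pooled spread, 6679 by bases covered, 1074 with merged peaks, 785 within 10 kb, 6903 within 100 kb and 32 with equal numbers of top peaks. H3K27ac windows, 0 in the reported fit, numbered 1492 lower and 859 higher by bases covered and 962 and 176 with the pooled spread. Depth is unknown for the CEBPB, CTCF and NANOG libraries and for some DKO libraries of other antibodies. These are replicate 1 of ETS1 and PAX5, replicate 2 of SOX2 and IRF8, and both replicates of IKAROS and OCT2. Short lists limit what can be seen of p300 and H3K27me3.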

Other observations

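Histone H1, profiled in the MEFs with the same design, had 0 peaks in the windows of the 9 genes in every library. The H1 lists held just 281, 284, 281 and 315 peaks, and 0.702% of all gene windows had one in any library, so this count says little about H1 at the members. Some of the members' CTCF values in ESCs moved at single sites in opposite directions. In the Tead1 window chr7:120009262-120009657 had fold enrichments of 34, 33.5, 12.9 and 13.6, whereas in the Tbx15 window chr3:99092231-99092646 had 15.4, 15.3, 38 and 37.4. Both passed the same limma test over sites called in all 4 libraries, where 22.5% of all 56473 CTCF sites fell and 24.7% rose.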
